A study of Homo sapiens with 18 samples.

Results

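The interaction between ZMYND8 and doxorubicin is the difference between the doxorubicin response of cells that overexpress ZMYND8 and that of cells that express green fluorescent protein (GFP). It was computed for each gene as the log2 fold change after 48 h of doxorubicin in ZMYND8 cells minus the same fold change in GFP cells. It addresses which doxorubicin responses differ between the ZMYND8 and GFP lines. The contrast takes 8 of the 18 libraries of the series, 2 for each of 4 conditions, which were chosen by their labels. It was fitted together with the 4 libraries taken at 6 h, 12 libraries in all, so that they share 1 estimate of the spread. A positive interaction is a larger rise or a smaller fall in ZMYND8 cells, and a negative one is a smaller rise or a larger fall.

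All 8 libraries are poly(A) RNA of MDA-MB-231, a triple-negative breast adenocarcinoma line of basal, mesenchymal character. The cells carried a lentiviral, doxycycline-inducible pInducer20 vector with either Flag-tagged ZMYND8 cDNA or GFP cDNA and were kept under G418 selection. The conditions were GFP cells without doxorubicin, GFP cells after 48 h of doxorubicin, ZMYND8 cells without doxorubicin and ZMYND8 cells after 48 h of doxorubicin. Cells of all conditions received 250 ng/mL doxycycline. Treated cells had it for 4 h and then received 0.6 µM doxorubicin with doxycycline still present. How long the cells without doxorubicin were kept on doxycycline is not given in the labels. Cells at 6 h and at 48 h of doxorubicin also differed in their time on doxycycline. An effect of doxorubicin and one of the length of induction therefore cannot be told apart. There was 1 stable line per construct, so an effect of ZMYND8 and a difference between the lines cannot be told apart, although the labels call the replicates biological.

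ZMYND8 is a chromatin reader that binds acetylated and methylated histone tails and works with histone demethylases, the NuRD complex and zinc finger partners to repress or tune transcription. Doxorubicin intercalates into DNA and traps topoisomerase II on it, which breaks DNA, evicts histones and engages checkpoint signalling. Cells that survive may stop in the cycle, repair their DNA and release cytokines, and the genes for DNA replication, mitosis and repair are largely switched by the E2F and DREAM regulators, whereas many cytokine genes answer to NF-kB. MDA-MB-231 cells carry a mutant p53.

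The 8 libraries held between 18300628 and 23724398 counts over genes. Libraries of a condition differed by more than sampling noise but far less than libraries of different conditions, so none was a copy of another. The markers of a basal mesenchymal-like line were abundant, with a summed level of 9303 to 9338 CPM (counts scaled to a fixed library size) in GFP cells, 5026 to 5111 in GFP cells at 48 h, 8884 to 9428 in ZMYND8 cells and 5579 to 5730 in ZMYND8 cells at 48 h. SPARC, a matrix glycoprotein among them, was at 163 CPM in GFP and 1.18 CPM in ZMYND8 cells without doxorubicin. The 10 luminal markers summed to between 268 and 514 CPM, mostly from KRT19 (368 CPM in GFP and 183 in ZMYND8 cells without doxorubicin) and XBP1 (115 and 143 CPM), while the receptor genes ESR1 and PGR and the factor gene FOXA1 stayed under 1 CPM in every condition. Of 9 leukocyte markers, 4 passed the filter on low counts, and CD14 was at 19.0 CPM in GFP and 2.18 CPM in ZMYND8 cells without doxorubicin.

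ZMYND8 itself (chr20:47209214-47356889, hg38, minus strand) was at 209 and 208 CPM in GFP cells, 139 and 141 in GFP cells at 48 h, 922 and 927 in ZMYND8 cells and 1001 and 924 in ZMYND8 cells at 48 h. All 4 ZMYND8 libraries lay far above the 4 GFP libraries, as the labels have it, and these counts include the transgene's cDNA. In GFP cells the gene fell by 0.58 on the log2 scale with doxorubicin, while in ZMYND8 cells its log2 change was 0.06 (adjusted p = 0.24), giving an interaction of 0.64 ± 0.06 (SE, edgeR quasi-likelihood test, adjusted p = 1.2e-08).

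Of 18801 genes tested, 5371 were called at a Benjamini-Hochberg adjusted p of at most 0.05, which is 28.6% of the genes. The interaction was higher than 0 in 2397 (12.7%) and lower in 2974 (15.8%), and the median over all genes was -0.01. Among the called genes the median size of the interaction was 0.46 on the log2 scale, the smallest was 0.14, and 837 reached 1, of which 494 were higher and 343 lower. At an unadjusted p of at most 0.05, 7056 genes passed. Doxorubicin by itself moved most genes in both lines: 12077 (64.2%) in GFP cells, with 32.4% up and 31.8% down, and 11718 (62.3%) in ZMYND8 cells, with 31.6% up and 30.8% down. The responses of both lines, which share no library, had a Pearson r of 0.79 and a Spearman rho of 0.75 across genes, and 79.4% of genes had the same sign. Genes are not independent replicates, so this is a description of how alike the responses were.

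**Figure D1:**
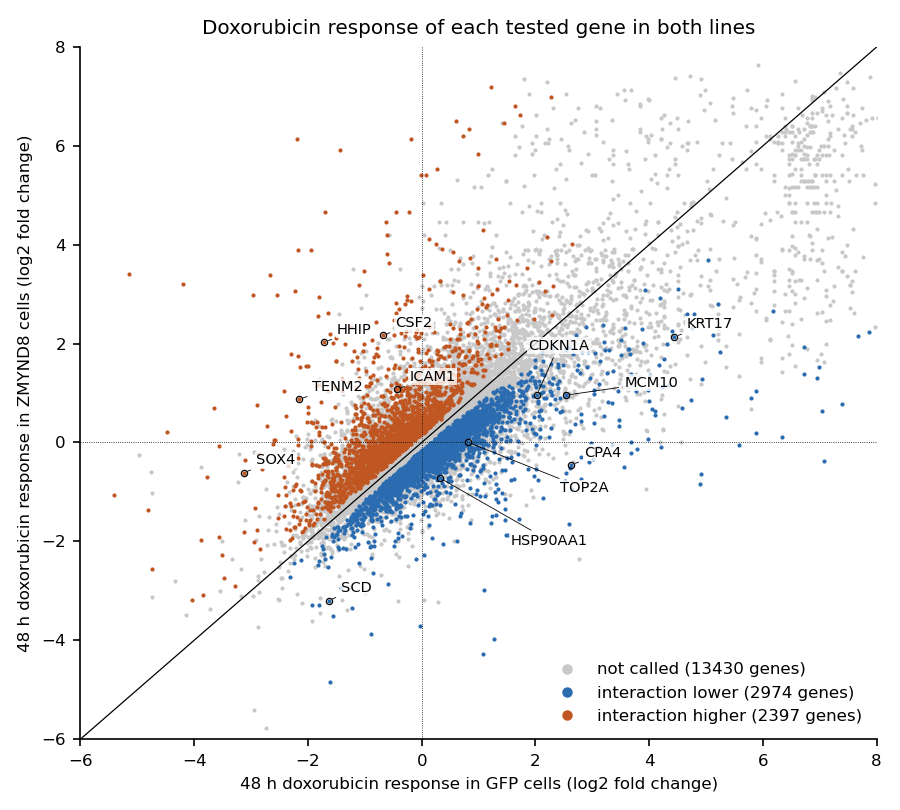
Each point is 1 tested gene, with its 48 h doxorubicin response in GFP cells on the horizontal axis and in ZMYND8 cells on the vertical axis (both log2 fold change), the diagonal marks equal responses, and 22 genes lie outside the range shown. Called genes lie above the diagonal where the interaction was higher (2397) and below it where it was lower (2974), and the named genes are ringed.

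The called genes were placed by the response in each line. The largest class, 1592 genes (29.6% of those called), moved in the same direction in both lines but less in ZMYND8 cells, 789 of them up and 803 down. Another 1084 (20.2%) moved in the same direction and more in ZMYND8 cells, and of these 788 went down and 296 up. The response passed the threshold in GFP cells only for 1142 genes (21.3%) and in ZMYND8 cells only for 951 (17.7%). In 560 (10.4%) both responses passed in opposite directions, 255 with a higher and 305 with a lower interaction, and in 42 (0.782%) neither passed alone. Among genes that rose in both lines, smaller responses in ZMYND8 cells thus outnumbered larger ones (789 against 296). Among genes that fell in both, the numbers were close (803 against 788).

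Genes for DNA replication and S phase had lower interactions almost throughout. All 60 listed genes were tested, 52 had a lower interaction and none a higher one, against a background of 15.8% lower, and the list median was -0.63. In GFP cells 57 rose and 1 fell with a median response of 1.23, and in ZMYND8 cells 52 rose and 5 fell with a median of 0.60. The genes were thus up in both lines after 48 h, but less so in ZMYND8 cells. In bulk RNA, fewer cells in S phase and less of each transcript per cell cannot be told apart.

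MCM10 (chr10:13161554-13211104), which helps to assemble and hold the replicative helicase, was at 18.9 and 21.4 CPM in GFP cells and 111 and 123 CPM at 48 h. In ZMYND8 cells it was at 53.4 and 54.9 CPM and then at 107 and 104. The GFP libraries without doxorubicin were the lowest and the conditions with doxorubicin ended close together, with the ZMYND8 libraries starting higher. MCM10 rose by 2.54 in GFP and 0.96 in ZMYND8 cells, an interaction of -1.58 ± 0.09 (SE, adjusted p = 5.01e-13). RRM2, the regulatory subunit of ribonucleotide reductase, was at 118 and 115 CPM in GFP cells, 496 and 494 at 48 h, 186 and 196 in ZMYND8 cells and 425 and 429 at 48 h. The 4 conditions did not overlap, and its interaction was -0.93 ± 0.06 (adjusted p = 4.75e-12). RRM1, the catalytic subunit, had an interaction of -0.82 and UHRF1, which couples DNA methylation to replication, one of -1.08.

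The study named 5 genes of DNA damage signalling on these samples, so their direction here is not independent evidence. It reported that ZMYND8 alone regulated them, and that its added effect under doxorubicin was minimal or not significant. Here their median ZMYND8 minus GFP difference was 0.67 without doxorubicin and -0.15 at 48 h. All 5 had a lower interaction: MCM10, CLSPN (-0.89), CDC25A (-0.75), BRCA1 (-0.71) and RFC3 (-0.59). Each rose in both lines. CLSPN encodes the checkpoint adaptor claspin, CDC25A a phosphatase that activates cyclin-dependent kinases, BRCA1 a scaffold of homologous recombination and RFC3 a subunit of the clamp loader. CDC25A was at 22.8 and 22.4 CPM in GFP cells, 90.1 and 88.8 at 48 h, 34.8 and 36.8 in ZMYND8 cells and 85.5 and 83.2 at 48 h. Without doxorubicin the ZMYND8 libraries lay above the GFP libraries, and with it they lay below them.

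The promoters of S phase genes are known for E2F sites, and those of mitotic genes for the cell cycle homology region (CHR), so the 120 bases before the RefSeq start (GRCh38.p14) are shown for 2 genes of each list. Capitals mark the E2F letters TTTGGCGC or TTTCGCGC in the first pair and the CHR letters TTTGAA, read on either strand, in the second, and CDC25A, E2F1, KIF23 and ANLN lie at chr3:48188418-48188537 (minus strand), chr20:33686386-33686505 (minus strand), chr15:69414229-69414348 (plus strand) and chr7:36389742-36389861 (plus strand).
CDC25A: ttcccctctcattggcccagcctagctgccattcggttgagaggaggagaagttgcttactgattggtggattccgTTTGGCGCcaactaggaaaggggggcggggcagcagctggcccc
E2F1: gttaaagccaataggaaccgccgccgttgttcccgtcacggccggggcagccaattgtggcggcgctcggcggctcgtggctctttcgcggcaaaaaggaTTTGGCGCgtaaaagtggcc
KIF23: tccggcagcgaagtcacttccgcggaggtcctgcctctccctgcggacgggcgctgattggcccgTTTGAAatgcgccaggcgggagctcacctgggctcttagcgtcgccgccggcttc
ANLN: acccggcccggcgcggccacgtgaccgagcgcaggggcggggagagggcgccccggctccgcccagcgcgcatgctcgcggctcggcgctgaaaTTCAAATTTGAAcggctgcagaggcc

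The 250 bases before the start were searched on both strands in every promoter of the table, and 12575 of the tested genes had one. The E2F letters occurred in 9 of 50 S phase promoters (18%), in 1.54% of the promoters of tested genes and in 0.996% of all 27305 promoters. They occurred in 1 of 36 promoters of the homologous recombination, Fanconi and checkpoint genes (2.78%), near the share over tested genes. The CHR letters occurred in 21 of 44 mitotic promoters (47.7%), in 8.8% of those of tested genes and in 13.6% of all. In ANLN the match on one strand abuts that on the other. A match is a description of these letters and not a site shown to act, and different motifs were counted separately where they overlap.

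With the scaling used here, genes of mitosis and G2/M went in opposite directions in the lines on balance. Scaled by total counts, their median response was 0.70 in GFP and 0.05 in ZMYND8 cells, so the sign in ZMYND8 cells depends on the scaling. Of 50 tested, 45 had a lower interaction, against 15.8% of all genes, and none a higher one, with a list median of -0.58. In GFP cells 34 rose and 7 fell with a median response of 0.45, whereas in ZMYND8 cells 8 rose and 25 fell with a median of -0.16. TOP2A (chr17:40388525-40417896), the topoisomerase that doxorubicin traps, was at 483 and 477 CPM in GFP cells and 841 and 854 at 48 h. In ZMYND8 cells it was at 768 and 770 CPM without and 775 and 762 with doxorubicin. It rose in GFP cells only by the test, with an interaction of -0.82 ± 0.05 (adjusted p = 2.72e-12), and the ZMYND8 libraries, treated or not, lay below the treated GFP libraries and above the untreated ones. KIF23, a kinesin of the central spindle, was at 82.4 and 80.3 CPM in GFP cells, 150 and 147 at 48 h, 174 and 180 in ZMYND8 cells and 170 and 162 at 48 h. It again rose in GFP cells only by the test, with the largest negative interaction of the list (-0.96). ANLN, the actin-binding protein anillin, fell by 0.87 in ZMYND8 cells, with a log2 change of -0.05 in GFP cells (adjusted p = 0.22). KIF2C, a microtubule-depolymerising kinesin, had an interaction of -0.79.

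In homologous recombination, the Fanconi pathway and the checkpoints, 28 of 41 genes had a lower interaction and 2 a higher one. Over all genes the shares were 15.8% and 12.7%, and the list median was -0.41. The median response was 0.86 in GFP and 0.20 in ZMYND8 cells. FANCI, which is monoubiquitinated with FANCD2 at crosslinks, was at 56.3 and 55.1 CPM in GFP cells, 144 and 149 at 48 h, 124 and 125 in ZMYND8 cells and 155 and 155 at 48 h. The untreated GFP libraries stood well below the others, and the interaction was -1.08 ± 0.06 (adjusted p = 4.76e-13). BRIP1, a helicase that binds BRCA1, had -1.08, XRCC3, which acts in strand exchange, -1.06 and FANCA, of the Fanconi core complex, -0.89. The 2 genes with a higher interaction were FANCF, of the same core complex (0.64), and ATM, the kinase that senses breaks (0.30).

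**Figure D2:**
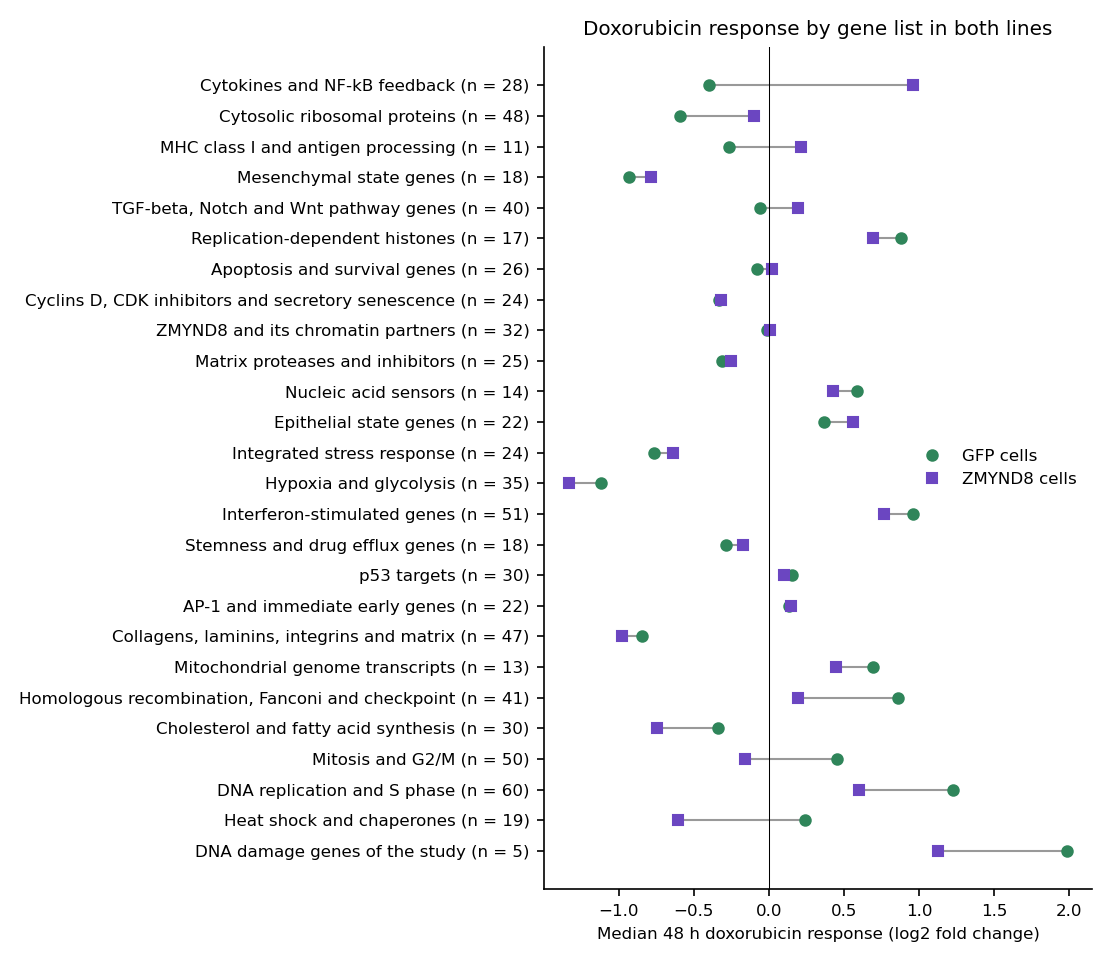
Median 48 h doxorubicin response (log2 fold change) of the tested genes of each list in GFP cells (circles) and ZMYND8 cells (squares), joined by a line, with the number of genes tested beside each list and lists ordered by their median interaction. S phase genes lay at 1.23 in GFP and 0.60 in ZMYND8 cells, and cytokines and NF-kB feedback genes at -0.40 and 0.96.

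Targets of p53 went both ways: of 30 tested, 4 had a higher and 9 a lower interaction, 43.3% called against 28.6% of all genes, with a median of -0.10. CDKN1A (chr6:36676460-36687339), the p21 inhibitor of cyclin-dependent kinases, was at 114 and 106 CPM in GFP cells, 447 and 446 at 48 h, 133 and 135 in ZMYND8 cells and 263 and 256 at 48 h. It was highest in the treated GFP libraries and rose in both lines, by 2.02 and 0.95, with an interaction of -1.07 ± 0.06 (adjusted p = 3.57e-13). AEN, a p53-induced exonuclease, had -0.72, POLH, the translesion polymerase eta, -0.65 and GADD45A, a growth arrest gene, -0.35. In the other direction BBC3, which encodes the BH3-only protein PUMA, had 0.96, TP53I3 0.61, ZMAT3 0.58 and the death receptor gene TNFRSF10B 0.37. BBC3 fell in GFP cells, while its log2 change in ZMYND8 cells was 0.11 (adjusted p = 0.38).

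Chaperone genes also had lower interactions. These encode proteins that fold other proteins, and heat shock factor drives many of them under stress. Of 19 tested, 15 had a lower interaction, against 15.8% of all genes, and none a higher one, with a median of -0.67. HSP90AA1, the inducible HSP90, was at 1878 and 1897 CPM in GFP cells and 2335 and 2389 at 48 h. In ZMYND8 cells it was at 3409.9 and 3485 CPM and then 2109 and 2073. It rose in GFP and fell in ZMYND8 cells, from a starting level in ZMYND8 cells above all other libraries, with an interaction of -1.04 ± 0.05 (adjusted p = 1.5e-14). DNAJB1, an HSP40 cochaperone, fell by 1.27 in ZMYND8 cells, with a log2 change of -0.07 in GFP cells (adjusted p = 0.14) and an interaction of -1.20. HSPH1, a nucleotide exchange factor of HSP70, had -1.03 and HSPD1, the mitochondrial chaperonin, -0.97. The ZMYND8 minus GFP difference of the list had a median of 0.84 without doxorubicin, 0.65 at 6 h and 0.25 at 48 h. The heat shock element, 3 alternating GAA and TTC units with any 2 bases between them, occurred in 2 of 18 promoters of the list (11.1%), in 0.326% of those of tested genes and in 0.439% of all.

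Cholesterol and fatty acid synthesis genes fell further in ZMYND8 cells. SREBP factors drive these genes when sterols run low. Of 30 tested, 22 had a lower interaction, against 15.8% of all genes, and none a higher one, with a median of -0.43. The median response was -0.34 in GFP and -0.75 in ZMYND8 cells. SCD, the desaturase that makes oleate, was at 2090.3 and 2214 CPM in GFP cells, 699 and 684 at 48 h, 919 and 927 in ZMYND8 cells and 95.3 and 105 at 48 h. The treated ZMYND8 libraries were the lowest by far, and the interaction was -1.56 ± 0.06 (adjusted p = 3.88e-16). INSIG1, which holds SREBP in the endoplasmic reticulum, was at 144 and 145 CPM in GFP cells, 104 and 104 at 48 h, 219 and 214 in ZMYND8 cells and 54.8 and 54.4 at 48 h. It began highest and ended lowest in ZMYND8 cells, with an interaction of -1.51 ± 0.06. The sterol response letters, TCAC and CCAC with any base between them, occurred in 1 of 23 promoters of the list (4.35%) and in 0.875% of all.

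Cytokine and NF-kB feedback genes had mostly higher interactions. Of 28 tested, 21 had a higher interaction, against a background of 12.7%, and 1 a lower one, with a list median of 1.03. The median is 1.12 when 2 members are set to the count floor of 3, since no library of some condition exceeded it for them. In GFP cells 9 genes rose and 17 fell with a median response of -0.40, and in ZMYND8 cells 17 rose and 2 fell with a median of 0.96. Without doxorubicin the list was lower in ZMYND8 than in GFP cells, with a median difference of -1.27, which was -0.62 at 6 h and -0.54 at 48 h. The 9 leukocyte markers had summed levels of 19.9 to 21.04 CPM in GFP cells, 22.6 to 23.9 at 48 h, 2.96 to 3.06 in ZMYND8 cells and 7.32 to 7.4 at 48 h. The sum was higher at 48 h in both lines. CD14 made up most of the sum in GFP cells. PTPRC, the leukocyte antigen CD45, had mean levels of 0.496 CPM in GFP cells, 3.66 at 48 h, 0.0936 in ZMYND8 cells and 2.04 at 48 h, with at most 94 counts in a library. LYZ and ITGAM had at most 37 and 21 counts, and MS4A1 and NKG7 at most 1. The part of such cells in the result was not tested.

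ICAM1 (chr19:10271093-10286615), the adhesion molecule that leukocytes bind, was at 354 and 367 CPM in GFP cells and 272 and 263 at 48 h. In ZMYND8 cells it was at 36.4 and 36.6 CPM and then 74.9 and 79.6. The ZMYND8 libraries stayed below the GFP libraries throughout, and the gene fell in GFP and rose in ZMYND8 cells, with an interaction of 1.51 ± 0.07 (adjusted p = 8.32e-15). TNFAIP3, the ubiquitin-editing enzyme A20 that limits NF-kB, was at 23.4 and 27.7 CPM in GFP cells, 40.3 and 39.9 at 48 h, 28.4 and 28.9 in ZMYND8 cells and 123 and 120.3 at 48 h. It started close in both lines and was highest in treated ZMYND8 cells, with an interaction of 1.44 ± 0.10 (adjusted p = 8.68e-12). IL6, which encodes the cytokine interleukin 6, was at 54.2 and 48.4 CPM in GFP cells, 62.5 and 62.8 at 48 h, 69.7 and 75.9 in ZMYND8 cells and 238 and 230 at 48 h. Treated ZMYND8 cells again stood above all others, and the interaction was 1.39 ± 0.08 (adjusted p = 9.88e-13). BIRC3, an inhibitor of apoptosis induced by NF-kB, had 1.41, falling in GFP and rising in ZMYND8 cells. CSF2, the growth factor GM-CSF, was at 16.5 and 19.0 CPM in GFP cells, 11.01 and 11.06 at 48 h, 1.17 and 1.97 in ZMYND8 cells and 7.52 and 6.98 at 48 h. The ZMYND8 libraries without doxorubicin were lowest, and the interaction was 2.85 ± 0.24 (adjusted p = 9.06e-10). The exception was IL11, a cytokine of the IL6 family, at 20.02 and 17.3 CPM in GFP cells, 54.1 and 55.7 at 48 h, 208 and 199 in ZMYND8 cells and 213 and 206 at 48 h. It was high in every ZMYND8 library and rose in GFP cells only by the test, with an interaction of -1.51 ± 0.09.

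NF-kB sites are known in these promoters, so the 120 bases before the start are shown for TNFAIP3 (chr6:137867139-137867258, plus strand) and IL6 (chr7:22727080-22727199, plus strand) with matches to the NF-kB consensus in capitals.
TNFAIP3: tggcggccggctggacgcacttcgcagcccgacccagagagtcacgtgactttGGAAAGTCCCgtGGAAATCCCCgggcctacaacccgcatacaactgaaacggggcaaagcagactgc
IL6: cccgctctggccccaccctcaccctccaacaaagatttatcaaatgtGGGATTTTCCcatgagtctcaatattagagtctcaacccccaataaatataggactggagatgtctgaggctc

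A match to the NF-kB consensus on either strand occurred in 10 of 22 promoters of the list (45.5%), in 11.6% of those of tested genes and in 9.57% of all.

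**Figure D3:**
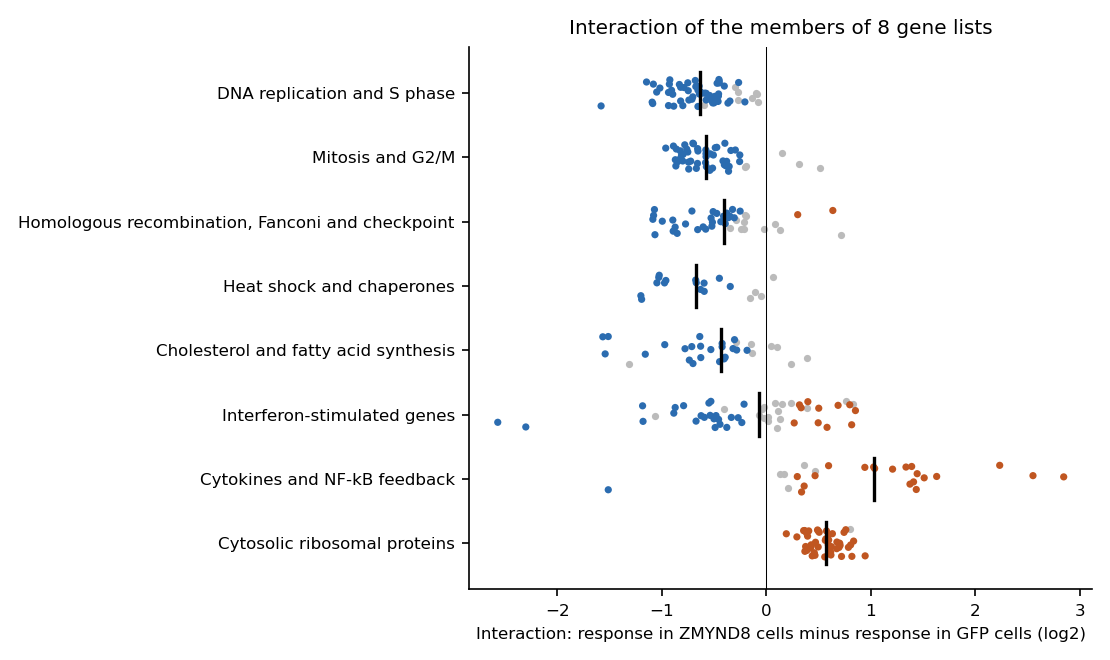
Each point is the log2 interaction of 1 member of a list, orange where called higher, blue where called lower and grey where not called, with the list median as a bar and members at the count floor left out. S phase, mitosis and chaperone members lay mostly below 0, whereas 21 cytokine and NF-kB genes, of which CCL2 at the count floor is not plotted, and 47 ribosomal protein genes were called above it.

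Interferon-stimulated genes rose in both lines and split by gene. Of 51 tested, 40 rose in GFP and 42 in ZMYND8 cells, and the median interaction was -0.07. A higher interaction was found in 11 and a lower one in 23 (66.7% called, against 28.6% of all genes). IFIT3, an antiviral RNA-binding protein, was at 211 and 211 CPM in GFP cells, 408 and 413 at 48 h, 1161 and 1178 in ZMYND8 cells and 1341 and 1288 at 48 h. The ZMYND8 libraries stood above every GFP library, and the interaction was -0.79 ± 0.05 (adjusted p = 8.04e-12). RSAD2, the antiviral enzyme viperin, had -2.30, but its levels in GFP cells without doxorubicin were 1.01 and 0.738 CPM, so its response there of 3.69 starts from few counts. OAS3, a sensor of double-stranded RNA, had -0.88. Higher interactions were found for SAMD9L (0.85), IRF1 (0.80), IFITM3 (0.58) and DDX60L (0.50). IRF1, an interferon regulatory factor, rose in ZMYND8 cells, with a log2 change of -0.08 in GFP cells (adjusted p = 0.12).

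Among 14 nucleic acid sensor genes, 3 had a higher and 4 a lower interaction, against 12.7% and 15.8% of all genes. CGAS, the sensor of cytosolic DNA, was at 56.1 and 59.0 CPM in GFP cells, 137 and 135 at 48 h, 94.8 and 100.3 in ZMYND8 cells and 139 and 132 at 48 h. It reached about the same level in both treated lines and had an interaction of -0.77. STING1, its adaptor, had 0.28, RIGI, the sensor of uncapped RNA, 0.52 and SAMHD1, which hydrolyses nucleotides, -0.51. Of 11 genes for MHC class I and antigen processing, 4 had a higher and none a lower interaction, with a median of 0.20. That is 36.4% called, against 28.6% of all genes. The 4 genes were ERAP2 (0.85) and ERAP1 (0.42), which trim peptides, the proteasome subunit PSMB10 (0.64) and B2M (0.20), the light chain. In PSMB10, 39.4% of exon bases are shared with another gene on the same strand, so its value is uncertain.

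Cytosolic ribosomal protein genes fell in GFP cells and had higher interactions almost throughout. Of 48 tested, 47 had a higher interaction, against 12.7% of all genes, and none a lower one. The median was 0.57 and the range 0.19 to 0.95. In GFP cells 47 fell and none rose, and in ZMYND8 cells 23 fell and 16 rose. RPS14, a protein of the small subunit, was at 865 and 859 CPM in GFP cells, 423 and 419 at 48 h, 844 and 833 in ZMYND8 cells and 687 and 662 at 48 h. The treated GFP libraries were the lowest, and the interaction was 0.72 ± 0.05 (adjusted p = 1.02e-10). Summed over the list, the level was 35715 to 36247 CPM in GFP cells, 23171 to 24136 at 48 h, 32701 to 32959 in ZMYND8 cells and 30903 to 31727 at 48 h. Ribosomal protein genes have many processed pseudogenes, and reads that map to several places were left out of the counts. Mitochondrial transcripts, a sign of library quality, had 1 higher and 1 lower call of 13. They summed to 7720 to 8165 CPM in GFP cells, 12433 to 12791 at 48 h, 11451 and 17962 in replicates 1 and 2 of ZMYND8 cells and 19950 to 22407 at 48 h, so the sum was higher with treatment in both lines, and higher in treated ZMYND8 than in treated GFP libraries.

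**Figure D4:**
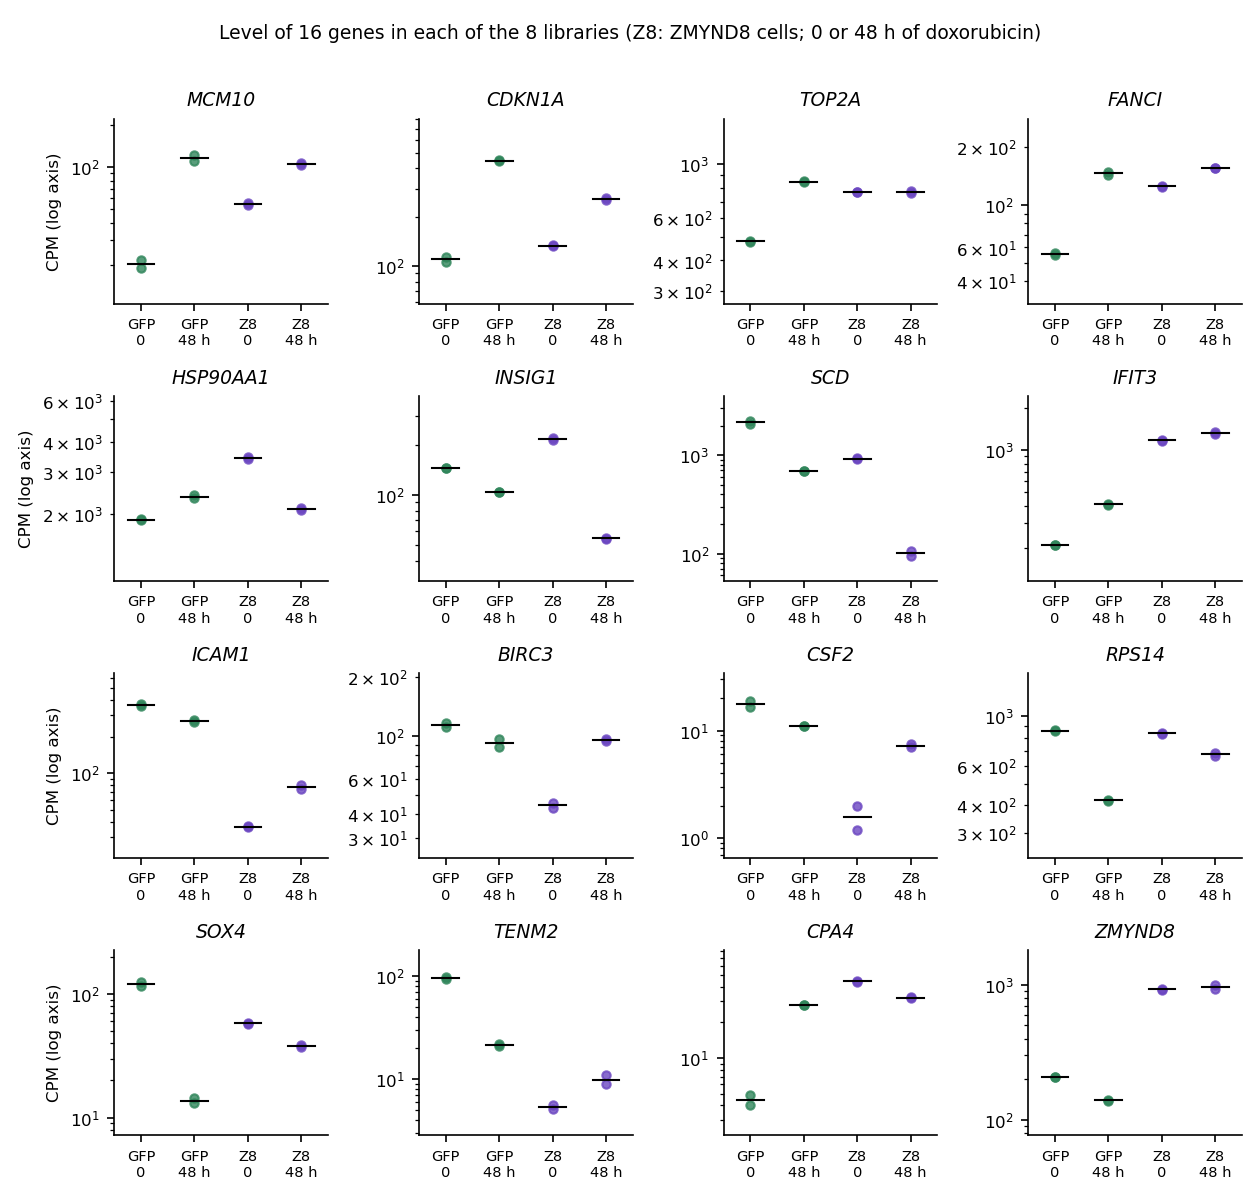
Level (CPM, log axis) of 16 genes in each of the 8 libraries, with a point per library and a bar at the mean of each condition, for GFP and ZMYND8 (Z8) cells at 0 or 48 h of doxorubicin. MCM10 ended between 104 and 123 CPM in both treated lines from different starting levels, whereas SCD fell furthest in ZMYND8 cells and TENM2 moved in opposite directions.

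Immediate early and AP-1 genes split: of 22 tested, 6 had a higher and 10 a lower interaction, with a median of -0.14. That is 72.7% called, against 28.6% of all genes. DUSP6, a phosphatase that turns off ERK, fell by 1.72 in GFP cells, with a log2 change of 0.01 in ZMYND8 cells (adjusted p = 0.91) and an interaction of 1.72. EGR1, a zinc finger factor induced by growth signals, was at 21.1 and 20.9 CPM in GFP cells, 86.2 and 86.6 at 48 h, 117 and 138 in ZMYND8 cells and 241 and 219 at 48 h. It rose in both lines from unequal levels, with an interaction of -1.20. DUSP1, another phosphatase of MAP kinases, had -1.02, FOSL1 -0.60, JUND -0.52 and KLF4 -0.57, while JUNB had 0.67 and DUSP5 0.65. FOSL1, JUND and JUNB are AP-1 subunits.

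Integrated stress response genes gave 5 higher and 3 lower calls of 24, a total of 33.3% against 28.6% over all genes. ATF4, the factor that directs this response, had 0.69, CEBPB 1.06, CHAC1, which degrades glutathione, 1.47 and SLC7A11, the cystine transporter, 0.61. PHGDH, the first enzyme of serine synthesis, had -1.80, SLC7A5 -0.41 and CEBPG -0.38. Hypoxia and glycolysis genes fell in both lines, 33 of 35 in GFP and 34 in ZMYND8 cells. They had 7 higher and 11 lower interactions (51.4% called, against 28.6% over all genes). NDRG1 (-0.83), the glucose transporter gene SLC2A1 (-0.64) and LDHA (-0.40) fell further in ZMYND8 cells, while CA12 (1.13) and the collagen crosslinking enzyme LOX (1.06) fell less.

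Matrix genes were mixed. Of 47 genes for collagens, laminins, integrins and matrix proteins, 9 had a higher and 18 a lower interaction (57.4% called). Of 25 matrix proteases and inhibitors 6 were higher and 6 lower (48% called), against 28.6% called over all genes. FN1, fibronectin, was at 1712 and 1617 CPM in GFP cells, 507 and 513 at 48 h, 817 and 776 in ZMYND8 cells and 471 and 473 at 48 h. The treated lines ended close together, and the interaction was 0.95 ± 0.06. ITGA3, an integrin that binds laminin, fell by 1.59 in GFP and by 2.32 in ZMYND8 cells. COL8A1 had -1.02 and COL6A1 -0.50. The collagenase gene MMP1 rose in both lines with an interaction of 1.21, and PLAT, the tissue plasminogen activator, had 0.76, whereas ADAMTS1 had -1.55 and ADAMTS6 -1.33.

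Mesenchymal genes, some of which the study followed and 18 of which were tested, gave 7 higher and 4 lower calls. Of them 61.1% were called, against 28.6% of all genes. The list median was 0.18, and it was 0.03 with the 2 members at the count floor set to 3 counts. CDH11, FN1, VIM, S100A4, ZEB1, CAV1 and CAV2 fell in both lines and less in ZMYND8 cells, with interactions between 0.21 and 1.19. LOXL2 (-1.07), TGFB2 (-0.46), AXL (-0.39) and MSN (-0.35) fell further in ZMYND8 cells. ZEB1, a repressor of epithelial genes, was at 112 and 115 CPM in GFP cells, 50.5 and 51.8 at 48 h, 87.6 and 89.6 in ZMYND8 cells and 50.5 and 48.2 at 48 h. Both treated lines overlapped.

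Of 22 epithelial genes, 3 had a higher interaction, a share near the 12.7% of all genes, and 7 a lower one, against 15.8%. KRT17, a basal keratin, was at 1.52 and 0.844 CPM in GFP cells, 27.0 and 24.9 at 48 h, 148 and 151 in ZMYND8 cells and 664 and 651 at 48 h. It was high in every ZMYND8 library and rose in both lines, with an interaction of -2.30. CDH1, E-cadherin, was at 0.862 and 0.580 CPM in GFP cells, 10.4 and 11.02 at 48 h, 3.46 and 4.86 in ZMYND8 cells and 20.1 and 21.7 at 48 h. It was higher in ZMYND8 cells at either time, and its interaction was -1.57 from a low level in GFP cells. ELF3 (-1.14), KRT19 (-0.59), CLDN4 (-0.37), CLDN7 (-0.34) and KRT8 (-0.27) were also lower, while CLDN1 (1.64), KRT7 (0.67) and JUP (0.63) were higher.

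Of 18 stemness and drug efflux genes, 6 had a higher and 4 a lower interaction (55.6% called, against 28.6% of all genes). The efflux pump gene ABCG2 was at 0.811 and 1.00 CPM in GFP cells, 3.11 and 2.48 at 48 h, 15.6 and 17.2 in ZMYND8 cells and 9.39 and 10.3 at 48 h. It was higher in ZMYND8 cells at either time, rose in GFP and fell in ZMYND8 cells, with an interaction of -2.35. The pump gene ABCC1 (-0.91), the vault protein gene MVP (-0.22) and KLF4 were also lower, and SOX9 (0.67), ABCC4 (0.61), CD44 (0.54), MYC (0.37), ABCC3 (0.31) and CD24 (0.31) were higher. The mesenchymal, epithelial and stemness lists include genes that the study followed by quantitative PCR in MDA-MB-231 cells, so their choice is not independent of it. The study reported that doxorubicin raised stemness, drug resistance and tumor-promoting genes, and that ZMYND8 with doxorubicin lowered such genes. Here, at 48 h in GFP cells, 9 of 18 stemness and drug efflux genes fell and 7 rose. Of 18 mesenchymal genes, 15 fell and 2 rose. These counts do not cover all genes that the study followed. Of 22 listed stemness and drug efflux genes, 4 did not pass the filter. NANOG and SOX2, which the study names, were not among those tested, and ABCB1 was at the count floor. The median response of this list in GFP cells was -0.28, but -0.04 when scaled by total counts. A lower level by PCR is another measure than the interaction.

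Genes for ZMYND8 and its chromatin partners gave 6 higher and 7 lower calls of 32, which is 40.6% against 28.6% of all genes, with a median of 0.02. KDM6B, an H3K27 demethylase, fell in GFP and rose in ZMYND8 cells, with an interaction of 1.06. ZNF532, a zinc finger partner, had 1.09. The NuRD subunit genes GATAD2A (-0.67), MTA1 (-0.46) and RBBP4 (-0.32) and the Polycomb genes EZH2 (-0.31), EED (-0.28) and SUZ12 (-0.25) were lower. KMT2A (0.36), KDM6A (0.24) and HDAC2 (0.20) were higher.

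Of 26 apoptosis and survival genes, 10 had a higher and 4 a lower interaction (53.8% called, against 28.6% of all genes). BMF, a BH3-only gene, had 1.41, CFLAR, which blocks caspase 8, 1.01, whereas BOK had -0.90 and CASP8 -0.36. Of 40 TGF-beta, Notch and Wnt genes, 16 were higher and 5 lower (52.5% called, against 28.6%), with a median of 0.17. INHBA, the activin subunit, was at 47.6 and 45.4 CPM in GFP cells, 45.1 and 43.8 at 48 h, 15.6 and 17.4 in ZMYND8 cells and 59.5 and 57.9 at 48 h. Untreated ZMYND8 cells stood lowest and treated ones highest, with an interaction of 1.89 ± 0.09. FZD1 had 1.38, TGFBR2 0.92 and JAG1 0.80, while ID3 had -1.17. Of 24 genes for cyclins, CDK inhibitors and secreted senescence factors, 5 were higher and 8 lower (54.2% called, against 28.6%). Among them were CDK6 (0.63), AREG (0.53), IGFBP3 (-0.73), LMNB1 (-0.55) and CCND3 (-0.39). Histone genes gave 2 higher and 1 lower call of 17, or 17.6%, which is under the share over all genes.

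The largest interactions among genes with at least 1 CPM in each condition are given for those with the clearest levels. HHIP, which binds Hedgehog ligands, was at 23.9 and 23.7 CPM in GFP cells, 7.63 and 6.94 at 48 h, 1.06 and 1.01 in ZMYND8 cells and 3.98 and 4.47 at 48 h. The lines moved towards each other, with an interaction of 3.74 ± 0.25 (adjusted p = 7.82e-12). TENM2, a teneurin of cell adhesion, was at 97.8 and 92.6 CPM in GFP cells, 21.7 and 21.1 at 48 h, 5.64 and 5.21 in ZMYND8 cells and 8.95 and 10.9 at 48 h, with an interaction of 3.03 ± 0.14. SOX4, a transcription factor of progenitor and mesenchymal states, was at 117 and 125 CPM in GFP cells, 13.05 and 14.5 at 48 h, 57.9 and 57.7 in ZMYND8 cells and 38.5 and 37.1 at 48 h. It fell in both lines, far more in GFP cells, and ended higher in ZMYND8 cells, with an interaction of 2.52 ± 0.09 (adjusted p = 1.44e-16). On the negative side CPA4, a carboxypeptidase, was at 4.87 and 4.06 CPM in GFP cells, 27.8 and 27.8 at 48 h, 43.7 and 44.7 in ZMYND8 cells and 32.5 and 32.1 at 48 h, with an interaction of -3.09 ± 0.15 (adjusted p = 1.75e-14). It rose in GFP and fell in ZMYND8 cells.

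The other genes with a large positive interaction were INAVA (3.10), TMC8 (2.72), PAEP (2.60), RNF144A (2.54), LINC02582 (2.53) and the pseudogene RPL13AP5 (3.92), which is uncertain because its reads can be shared with its parent gene. The other genes with a large negative interaction were ITPK1 (-2.85), ARHGEF16 (-2.55), TAF15 (-2.55), NPR3 (-2.33), FAM83H (-2.16), ATOH8 (-2.11) and CELSR1P1 (-1.97). HRAS belongs to this group by its fitted value of -3.35, which rests on ZMYND8 replicate 1. Its counts were 20 and 22 in GFP cells, 50 and 91 at 48 h, 507 and 40 in ZMYND8 cells and 31 and 160 at 48 h, and without single libraries the interaction ranged from -5.01 to -0.30.

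Genes near absence in a condition gave the largest fitted values and are given as counts. PARN, a poly(A) ribonuclease, had 93 and 123 counts in GFP cells, 5 and 2 at 48 h, 4 and 3 in ZMYND8 cells and 86 and 6 at 48 h, so that 1 library carries its rise in ZMYND8 cells, and its interaction of 8.57 ranged from 5.71 to 9.45 when single libraries were left out. MMP8, a neutrophil collagenase, had 187 and 194 counts, 55 and 45, 0 and 0, and 8 and 12 in the same order. With 3 counts in place of 0 in each library its rise in ZMYND8 cells was at least 2.80-fold. BRDT, a testis bromodomain gene, had 0 and 0 counts, 22 and 15, 522 and 625, and 519 and 526, so its rise in GFP cells was at least 5.18-fold. NTN1 had 155 and 143 counts, 168 and 187, 0 and 0, and 1 and 11, and POU2F2-AS2 had 121 and 144, 30 and 24, 0 and 0, and 1 and 1, so no fold is given for it in ZMYND8 cells. AMPH had 2 and 6 counts, 37 and 31, 214 and 281, and 171 and 176, and its interaction was -3.54 ± 0.42. SCAMP3 had 566 counts in GFP cells at 48 h replicate 2 and at most 36 in the other libraries, and PRRC2A had 216 in ZMYND8 replicate 1 and at most 55 elsewhere. Without these libraries the interactions of SCAMP3 and PRRC2A were at their smallest, -0.61 and -0.68.

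To see the doxorubicin response over genes chosen without these libraries, genes were taken from the transient system, where control cells were compared with cells given 0.6 µM doxorubicin. Of 468 genes that went up there, 461 were tested, and their median response was 1.17 in GFP and 0.71 in ZMYND8 cells. In 98.3% of them the sign was the same in GFP cells, and in 91.5% in ZMYND8 cells. The median interaction was -0.48, with 265 lower and 25 higher calls, against 15.8% and 12.7% over all genes. Of 337 genes that went down, 332 were tested, with medians of -1.19 and -0.90 and a median interaction of 0.30, with 150 higher and 30 lower calls. Over these genes, responses of either direction were thus smaller in ZMYND8 cells on balance. They were chosen in control cells that did not overexpress ZMYND8, and this choice by itself favours genes that respond in GFP cells. A general damping in ZMYND8 cells therefore cannot be read from them. The second treated control library of the transient system was far deeper than the others, and without it 102 and 15 genes were chosen, with median interactions of -0.65 and 0.47. From replicates 1 and 2 alone the median interactions were -0.69 and -0.66 for the 102 genes and 0.56 and 0.47 for the 15. For the 15 genes the difference between the median responses of both lines was smaller, at -0.04 and 0.18.

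The ZMYND8 minus GFP differences at each treatment are given side by side and without a test, because they share libraries with the interaction. S phase genes had medians of 0.26 without doxorubicin, 0.05 at 6 h and -0.50 at 48 h. Mitotic genes had 0.42, 0.32 and -0.08. Ribosomal protein genes had -0.16, 0.10 and 0.42, and cholesterol genes -0.35, -0.57 and -0.89. On these medians the difference at 6 h lay between those at the other times for each of these lists. Other lists did not all keep this order. Integrated stress response genes had -0.205, 0.19 and -0.14, and p53 targets 0.17, 0.01 and 0.13.

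**Figure D5:**
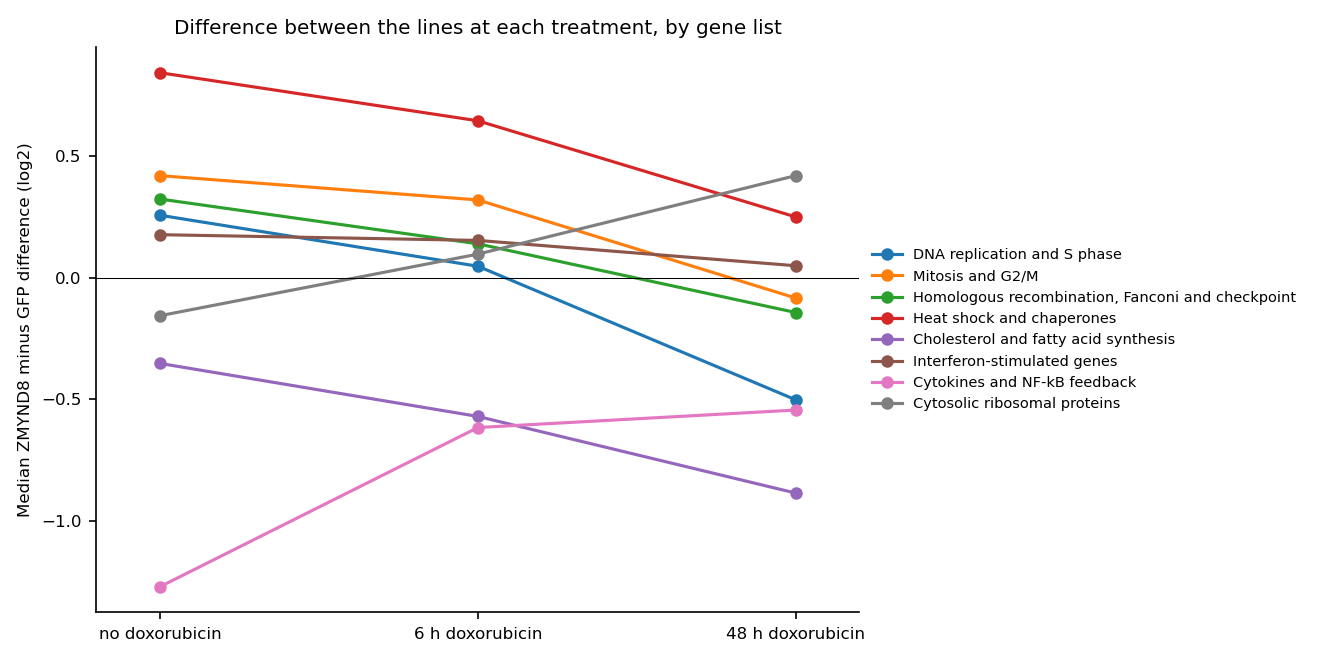
Median ZMYND8 minus GFP difference (log2) over the tested genes of 8 lists in cells without doxorubicin and after 6 h or 48 h of it, with equal spacing between treatments and lines joining medians of 1 list. Cytokines and NF-kB feedback went from -1.27 to -0.54 and S phase genes from 0.26 to -0.50.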

How the data were processed

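Raw counts of read pairs per gene were used as deposited. Per the file headers, the authors made these counts with featureCounts 1.6.4 on GENCODE release 31 (hg38), reverse-stranded, summing exons and leaving out multi-mapping reads. The aligner differs between sources: TopHat in the methods and HISAT2 in the submitters' processing notes. Samples were grouped by their labels. All 12 inducible libraries were fitted in edgeR 4.0.16 (R 4.3.3) with 1 mean per condition, TMM scaling and edgeR's filter on low counts (18801 of 60603 genes kept), leaving 6 residual degrees of freedom. Quasi-likelihood tests were adjusted by Benjamini-Hochberg over all genes, and the code was tested on simulated data. CPM values are TMM-scaled. Errors are SE. An exact permutation test of 2 against 2 libraries cannot go below p = 0.333, so none is given. Promoters are from RefSeq.

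Genes named were the 10 highest and 10 lowest interactions among called genes with a symbol, at least 1 CPM in each condition and a sign unchanged when any 1 of the 8 libraries was left out; the 4 highest and 4 lowest with under 1 CPM in a condition and at least 5 CPM in another; every called gene of the study's lists and ZMYND8; and for each other list up to 4 called members per direction by adjusted p. E2F1 was named for its promoter, SPARC, ESR1, PGR and FOXA1 as markers, and NANOG, SOX2 and ABCB1 as genes that the study names. Some genes that the rule selects are not reported here. The members and lists were chosen with earlier results of these data known. Most of the lists had a called share above the 28.6% of all genes, so such a share alone does not set a list apart. DESeq2 1.42.0 and other settings were tried as alternatives. The libraries of the transient system served only to choose genes.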

Additional observations from a re-analysis of the deposited data

Results flagged for a closer look

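The 48 h doxorubicin response differed between the lines in 5371 genes by the test of the interaction. Among the genes named for the largest interactions, 13 had both responses past the threshold in opposite directions. Each of them had over 3 counts in at least 1 library of every condition, which PARN and AMPH met with few counts. The log2 interaction was 3.74 for HHIP, 3.92 for RPL13AP5, 3.03 for TENM2, 2.85 for CSF2, 2.72 for TMC8, 2.6 for PAEP and 8.57 for PARN, which fell in GFP and rose in ZMYND8 cells. For PARN the rise in ZMYND8 cells rested on 1 library, with 86 and 6 counts at 48 h against 4 and 3 without doxorubicin, and its interaction ranged from 5.71 to 9.45 without single libraries. The value for RPL13AP5 is uncertain because reads of this pseudogene can be shared with its parent gene. The log2 interaction was -3.54 for AMPH, -3.09 for CPA4, -2.85 for ITPK1, -2.55 for ARHGEF16, -2.55 for TAF15 and -2.33 for NPR3, which rose in GFP and fell in ZMYND8 cells.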

How the results depend on the processing

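The number of genes called was 5396 with RLE factors, 5464 with total counts, 5025 without a filter, 5263 with at least 10 counts in every library, 5596 with the 8 libraries alone and 4131 with DESeq2 (76.7% of the main calls shared), and 5250 with over 3 counts in a library of each condition, chosen after seeing the data. Leaving out single libraries gave 4451 to 4850, with 79.3% to 84.2% of the main calls shared and none called in reverse. Replicate numbers did not pair the libraries (deviation correlations of -0.046 to 0.022), and the fit with the replicate number as a block called 5259 genes. At an unadjusted p of at most 0.05 and an absolute log2 of at least 1.5, 695 genes passed (408 higher, 287 lower), and at an adjusted p of at most 0.05 with at least 1, 837 (494 higher, 343 lower). Under these criteria lower calls numbered 1 and 7 for S phase, 0 and 0 for mitosis, 0 and 4 for homologous recombination, 1 and 6 for chaperones and 3 and 4 for cholesterol genes, and higher calls 0 and 0 for ribosomal proteins and, at 1.5, 6 for cytokines. With at least 1 in the class rule, 35 genes moved oppositely, 747 passed in GFP cells only, 494 in ZMYND8 cells only, 3711 in neither line, and 153 and 231 in the same direction with a larger or smaller response in ZMYND8 cells. Rises and falls within a line also depended on the scaling. With total counts the median response of all genes was 0.27 in GFP and 0.25 in ZMYND8 cells, against 0.03 and 0.05. In ZMYND8 cells the median of ribosomal protein genes was then 0.11, against -0.10, and that of mitotic genes 0.05, against -0.16. Median interactions over transient genes were -0.65 and 0.47 without the deep library, and 0.37 for genes that went down by at least 1. Of 198 named genes in 15 settings, 27 lost their call in at least 1 setting and none reversed. Those printed above that lost it without a single library were ABCC3, ATM, B2M, CAV2, CD14, CD24, CLDN7, EED, HDAC2, HRAS, KDM6A, KMT2A, MVP, NTN1, POU2F2-AS2, PRRC2A, SCAMP3, STING1 and TP53I3. The stricter fold criteria keep fewer genes by construction, and the cause of the other changes was not tested.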
